A study of Homo sapiens with 9 samples.

Results

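The chromosome 1q21 to q23 band lies on the long arm of chromosome 1, from 144.5 to 165 Mb of the hg19 build (1:144500001-165000000), a span of 20.5 Mb or 0.676% of the chromosomes analysed. Its members are γH2AX regions called on chromosome 1 whose midpoint lies in that span, taken from the region lists of 8 chromatin immunoprecipitation and sequencing (ChIP-seq) libraries. There were 2884 such regions of 234983 in all lists together, or 1.23%. The span was divided into 41 windows of 500 kb. The limits were given as positions, and no map of chromosome bands was used to check the band's name.

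All libraries were made from K562, an established human myelogenous leukaemia cell line that can be driven towards megakaryocyte-like cells. FANCL-KO cells lack FANCL, the ubiquitin ligase of the Fanconi anaemia core complex, and the other cells are wild type (WT). Cells of each genotype received 5 nM PMA, a phorbol ester, or a mock treatment for 72 h. The 4 groups were KO PMA, KO mock, WT PMA and WT mock, with 2 γH2AX libraries each. There was also 1 input library, sequenced without immunoprecipitation, from WT mock cells. The labels do not say whether the KO cells are 1 clone or a pool, nor whether the 2 libraries of a group are from separate cultures. Every p-value therefore speaks of the spread among these 8 libraries, and that spread may be technical.

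γH2AX is histone H2AX phosphorylated by the kinases that answer DNA breaks and stalled replication forks, and the mark can spread along the chromatin around a break. The Fanconi anaemia pathway repairs DNA crosslinks and protects stalled forks, and FANCL attaches ubiquitin to FANCD2 and FANCI in its central step. This stretch of chromosome 1 is known for dense gene clusters. In RefSeq's gene order (GRCh38.p14), histone cluster 2 comes first (H2BC18 to H2AC21). The epidermal differentiation complex follows (TCHHL1 to LORICRIN), whose proteins build the skin barrier, and then the S100A genes for calcium-binding proteins (S100A9 to S100A1). The CD1, FCRL and PYHIN genes of lymphocytes and innate sensing lie further along, and the SLAM and Fc receptor genes come after them (SLAMF8 to FCGR2B). The positions of these genes are in another build than the region lists, so no gene was placed in a window.

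Sequencing depth ran from 15.6 to 27.2 M tags (M, mega) per library and was not balanced between genotypes. Mean depth was 17.1 M in KO PMA, 16.7 M in KO mock, 22.1 M in WT PMA and 23.7 M in WT mock. WT PMA replicate 2, at 16.97 M, lay within the KO range. The tag threshold for calling a region was set by depth. Per 10 M tags it was 7.12 to 7.69 in KO and 5.89 to 7.07 in WT libraries. A comparison of KO with WT is therefore also one of thresholds. The part of depth itself was not tested. The share of tags inside regions, which the file headers give as the approximate efficiency of the immunoprecipitation, was 7.96 and 6.69% in KO PMA, 3.42 and 3.67% in KO mock, 4.69 and 4.24% in WT PMA, and 1.55 and 1.39% in WT mock. It moved with covered length, and more γH2AX and a more efficient immunoprecipitation cannot be told apart. Only WT mock cells were sequenced as input, so in the KO and PMA groups a different copy number of the band cannot be told apart from a change of γH2AX either. The lists hold no measurement of FANCL, and the genotype rests on the labels.

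γH2AX covered the band most in KO cells after PMA. Covered length, the base pairs of the band inside called regions, was 789 and 655 kb in KO PMA, 120 and 118 kb in KO mock, 269 and 212 kb in WT PMA, against 63.9 and 42.1 kb in WT mock. The 4 groups did not overlap, and both KO PMA libraries lay above every other library. The band held 826 and 725 regions in KO PMA, 199 and 187 in KO mock, 409 and 345 in WT PMA, and 116 and 77 in WT mock, in the same order and again without overlap. KO PMA exceeded WT PMA 2.06-fold in the number of regions and 1.46-fold in their mean width, and 3.01-fold in covered length. Each pair of groups was separated in covered length, with an exact permutation p of 0.333 (two-sided), the smallest that 2 libraries against 2 allow. Over both treatments KO was 2.63-fold above WT, and over both genotypes PMA was 5.28-fold above mock (exact permutation p = 0.0556 each, the smallest that shuffling within the other factor allows).

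The band was set against the rest of the chromosomes by dividing them into 134 segments of its length. The segments were fitted with limma on log2(covered bp + 5000), all 8 libraries in 1 model. The fit shared the spread among libraries over all segments, and each library's overall level enters every segment. The segments are thus not independent, and the p-values of this fit can be too small. KO PMA exceeded WT PMA in the band by 1.57 on the log2 scale (SE 0.24, adjusted p = 5.56e-10), where 79.9% of segments were called, 34 higher and 73 lower, and the median segment was at −0.85. The band ranked 15 of 134 from the highest in this comparison. Keeping only regions 6-fold over input or more, this difference was 0.46 (adjusted p = 0.0882) and the call ended. In KO cells PMA raised the band's covered length by 2.55 (SE 0.24, adjusted p = 4.32e-22). That was the second highest of the 134 segments, against a median of 0.83 and with 61.2% called, 78 higher and 4 lower. After rescaling each library to its total covered length this rise was 1.41 (SE 0.14, adjusted p = 1.16e-05). In WT cells PMA raised the band's covered length by 2.10 (SE 0.24, adjusted p = 1.33e-16). The median segment was at 2.09 and 91.8% were called, 122 higher and 1 lower. Under mock the KO band was higher by 1.12 (SE 0.24, adjusted p = 1.13e-05), with 55.2% of segments called, 61 higher and 13 lower. As a share of the library's covered length the KO band was higher by only 0.23 (adjusted p = 0.162). The PMA response of the band was larger in KO than in WT by 0.45 on the log2 scale (SE 0.34, adjusted p = 0.233), which did not pass. The median segment was at −1.22 and 68.7% were called, 2 higher and 90 lower.

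Covered length was also taken as a share of each library's total. The band held 1.85 and 1.89% of the covered length in KO PMA, 0.683 and 0.670% in KO mock, 0.855 and 0.853% in WT PMA, and 0.649 and 0.5% in WT mock. KO mock thus lay close to the 0.676% that the band's length would give, and both KO PMA libraries lay well above it. On this scale the KO response exceeded the WT response by 0.88 (log2, adjusted p = 0.00261), the third highest of 134 segments, against the fifth highest in covered length. The band's rank was the same on both scales for KO PMA against WT PMA and for KO PMA against KO mock, and further from the top as a share for KO mock against WT mock (51 and 43) and for WT PMA against WT mock (83 and 67). Chromosome 1 outside the band did not show the same order: its density was 16.7 ± 2.34 kb per Mb in KO PMA and 18.8 ± 3.19 kb per Mb in WT PMA, against 35.2 ± 4.64 and 11.7 ± 1.95 kb per Mb in the band (SD, n = 2 each). That difference between band and rest of the chromosome was not tested on its own.

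**Figure D1:**
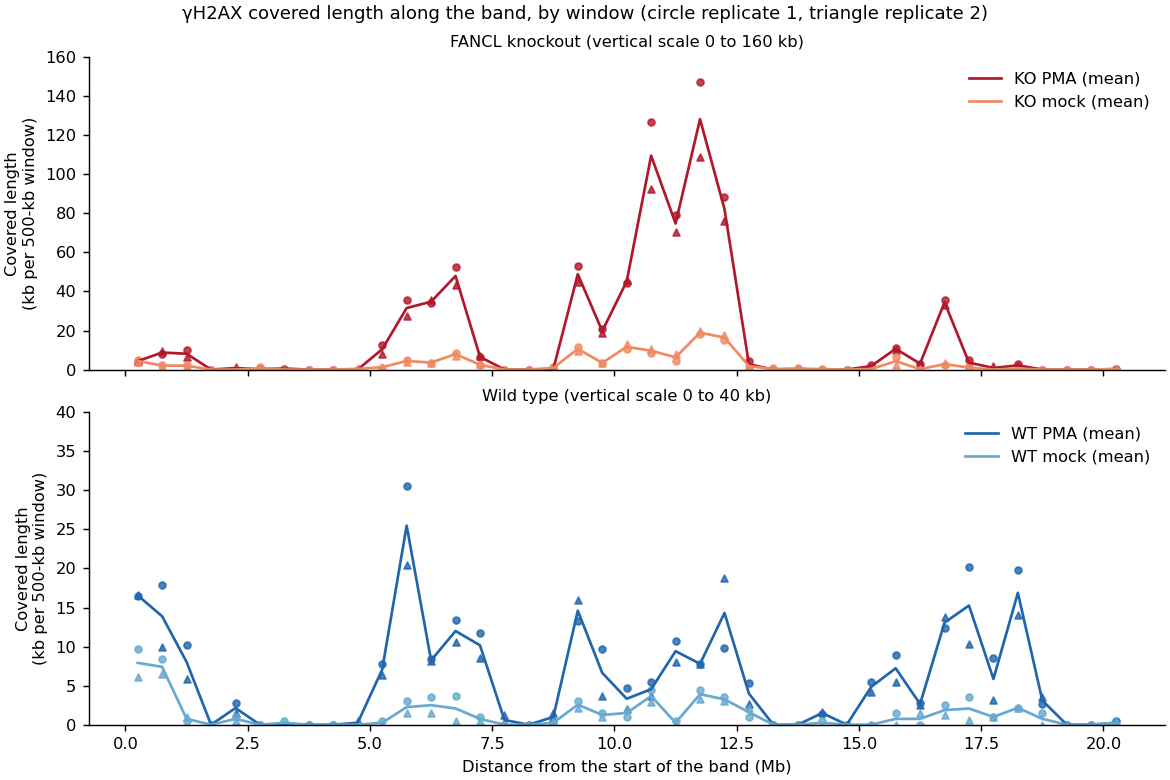
Covered length in kb per 500-kb window (vertical axes, on different scales for KO above and WT below) against distance from the start of the band in Mb. Lines are means of 2 libraries and points are single libraries, circles for replicate 1 and triangles for replicate 2; in KO PMA the windows from 10 to 12.5 Mb hold the highest values, up to 147 kb, while no WT library exceeds 30.5 kb in any window.

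Covered length was uneven along the band and formed blocks separated by stretches with almost none. Of the 41 windows, 16 were covered in all 8 libraries, 7 in none and 2 in 1 library, which left 32 that were tested. The blocks lay at 144.5 to 146 Mb, 149.5 to 152 Mb, 153.5 to 157 Mb and 159.5 to 163.5 Mb. Between them, 146 to 149.5 Mb held at most 2.78 kb in any library, 152 to 153.5 Mb at most 2.71 kb and 157 to 159.5 Mb at most 6.70 kb. From 163.5 to 165 Mb no library held more than 0.5 kb. The limits of these stretches were drawn after the window values were seen, so their totals are a description and were not tested.

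In KO PMA most of the covered length lay in a single stretch of 2.5 Mb, from 154.5 to 157 Mb. It held 486 and 394 kb in KO PMA, 56.7 and 69.1 kb in KO mock, 38.4 and 40.3 kb in WT PMA, against 14 and 11.2 kb in WT mock. Both KO PMA libraries were far above the rest, and KO mock lay above WT PMA although the band as a whole had the opposite order. The stretch made up 61.6 and 60.1% of the band's covered length in KO PMA, 47.4 and 58.5% in KO mock, 14.3 and 19.0% in WT PMA, and 21.9 and 26.5% in WT mock. The KO PMA mean was 11.2 times the WT PMA mean there, against 2.08 times from 149.5 to 152 Mb and 3.23 times from 153.5 to 154.5 Mb.

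In the totals of the stretches at both ends of the covered part, the order of KO and WT was the opposite. From 161.5 to 163.5 Mb, KO PMA held 7.30 and 5.84 kb, KO mock 2.5 and 0.5 kb, WT PMA 51.2 and 31.0 kb, and WT mock 8.13 and 3.85 kb. From 144.5 to 146 Mb, KO PMA held 21.9 and 20.3 kb, KO mock 9.78 and 7.11 kb, WT PMA 44.5 and 32.5 kb, and WT mock 18.6 and 13.5 kb. In both totals the KO PMA libraries lay below both WT PMA libraries, and the KO mock libraries lay below both WT mock libraries. This did not hold in the window at 145.5 to 146 Mb. There KO PMA held 10.0 and 6.19 kb, KO mock 2.13 and 1.87 kb, WT PMA 10.2 and 5.87 kb, and WT mock 0.5 and 1 kb. Except in KO PMA replicate 1, the regions at 144.5 to 146 Mb had more input beneath them than the library's regions over the whole band. Input there was 4.52 and 5.58 tags per kb in KO PMA (per 10 M tags), 6.6 and 7.04 in KO mock, 6.54 and 6.53 in WT PMA, and 7.76 and 6.16 in WT mock. Over the whole band the group means were 3.56 to 4.52. The part of this in the result was not tested.

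Each window was compared between groups with limma on log2(covered bp + 5000), fitted on all 3158 windows of the chromosomes covered in at least 2 libraries, with Benjamini-Hochberg adjustment over all of them and a threshold of 0.05. The pseudocount makes differences of little-covered windows small. After PMA, 11 of the 32 tested windows of the band were higher in KO than in WT and 7 were lower, where 52.5% of all windows were called, 16.6% higher and 35.8% lower. The higher share of 34.4% in the band was above its background, and the lower share of 21.9% was under it. The 5 windows with the largest increase were those from 154.5 to 157 Mb, a stretch whose limits were drawn after the window values were seen. The other higher ones lay at 147.5 to 148, 150.5 to 151.5, 153.5 to 154.5 and 161 to 161.5 Mb.

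The window at 155 to 155.5 Mb held 127 and 92.2 kb in KO PMA, 8.63 and 10.7 kb in KO mock, 5.45 and 3.64 kb in WT PMA, against 4.5 and 2.85 kb in WT mock. Only the KO PMA libraries left the range below 11 kb, and WT PMA and WT mock overlapped. KO PMA exceeded WT PMA by 3.57 on the log2 scale (SE 0.21, adjusted p = 0.000185).

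The window at 156 to 156.5 Mb was the fullest of the band in the KO groups, with 147 and 109 kb in KO PMA, 18.2 and 19.6 kb in KO mock, 7.76 and 7.83 kb in WT PMA, against 4.5 and 3.31 kb in WT mock. Its 4 groups did not overlap, and KO mock lay above WT PMA. KO PMA exceeded WT PMA by 3.37 (SE 0.17, adjusted p = 0.000149).

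The other 3 windows of the stretch were also higher in KO PMA. At 154.5 to 155 Mb there were 44.4 and 45.9 kb in KO PMA, 10.4 and 12.9 kb in KO mock, 4.65 and 2 kb in WT PMA, against 1 and 2 kb in WT mock, and the KO PMA excess over WT PMA was 2.61 (SE 0.20). At 155.5 to 156 Mb there were 79.1 and 70.5 kb in KO PMA, 4.32 and 8.22 kb in KO mock, 10.8 and 8.06 kb in WT PMA, against 0.5 and 0 kb in WT mock, for an excess of 2.47 (SE 0.21). At 156.5 to 157 Mb there were 88.4 and 76.0 kb in KO PMA, 15.1 and 17.7 kb in KO mock, 9.80 and 18.8 kb in WT PMA, against 3.5 and 3 kb in WT mock, for an excess of 2.21 (SE 0.24). KO PMA was separated from the other groups in all 3, while KO mock and WT PMA overlapped in the last 2. Adjusted p-values lay between 0.000327 and 0.000994. When regions under 6-fold over input were left out, 3 of the 5 calls ended and those of 155 to 155.5 Mb (log2 1.4) and 155.5 to 156 Mb were kept.

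Windows lower in KO PMA lay mainly at 161.5 to 163.5 Mb. The strongest was at 162.5 to 163 Mb, with 2.65 and 1.68 kb in KO PMA, 0.5 kb in each KO mock library, 19.8 and 14 kb in WT PMA, against 2.13 and 2.20 kb in WT mock. WT PMA alone was high there, and the KO PMA difference from WT PMA was −1.60 (SE 0.17, adjusted p = 0.00104). At 144.5 to 145 Mb, KO PMA held 4.01 and 4.64 kb, KO mock 5.08 and 3.74 kb, WT PMA 16.5 and 16.6 kb, and WT mock 9.73 and 6.11 kb (KO PMA minus WT PMA −1.21, SE 0.18, adjusted p = 0.00279). The KO groups overlapped in that window and lay below both WT groups, and at 6-fold over input or more the value was 0 and the call ended. A window at 159.5 to 160 Mb was also lower (−0.55, SE 0.15). The differences at 161.5 to 162 Mb (−1.21), 162 to 162.5 Mb (−0.87) and 163 to 163.5 Mb (−0.69) had adjusted p-values of 0.0285, 0.0352 and 0.0063. Without WT PMA replicate 1 the first became −0.85 and the second −0.50, and neither passed. These 3 calls were kept under 8 of 16, 5 of 16 and 12 of 14 alternatives. With 1 tag threshold the first was −0.12 (adjusted p = 0.840), and with lists trimmed to equal numbers of regions the third was −0.29 (adjusted p = 0.115). The third also ended after rescaling to total covered length (adjusted p = 0.0881), and the second with the replicate number as a block (adjusted p = 0.0530). The first call also ended without either KO PMA library, and the second without any other library except WT PMA replicate 2. Calls can rest on very little: that at 158.5 to 159 Mb compares 0 kb in both KO PMA libraries with 1.36 and 1.64 kb in WT PMA, and the higher call at 147.5 to 148 Mb compares 0.5 kb in each KO PMA library with 0 in WT PMA.

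Under mock treatment 7 of 32 windows were higher in KO and none lower, where 26.3% of all windows were called, 22.4% higher and 3.99% lower. At an unadjusted p under 0.05 there were 9 windows in either direction. The higher share of 21.9% was near its background. The 7 windows were the 5 of the 154.5 to 157 Mb stretch and those at 151 to 151.5 Mb (0.90, SE 0.25) and 153.5 to 154 Mb (1.04, SE 0.16). The largest difference was at 156 to 156.5 Mb, at 1.43 (SE 0.17, adjusted p = 0.0024). That call ended at 6-fold over input or more (0.46), with regions of at least 1000 bp (0.41) and with lists trimmed to equal numbers of regions (0.83). The call at 155.5 to 156 Mb ended without KO mock replicate 2 (0.83) or either WT mock library (1.15 and 1.01), and that at 156.5 to 157 Mb without KO mock replicate 2 (1.29). After rescaling each library to its total covered length the count was 5 higher and 4 lower, and with lists trimmed to equal numbers of regions 1 higher and 4 lower.

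PMA raised covered length in both genotypes. In KO cells 16 of 32 windows were higher after PMA and none lower, against 24% of all windows called, 17.9% higher and 6.08% lower. The 50% of the band's windows that were higher was over this background. The count was 8 of 32 after rescaling each library to its total covered length, 8 of 27 with lists trimmed to equal numbers of regions and 5 of 26 at 6-fold over input or more. The window at 155 to 155.5 Mb rose by 2.95 (SE 0.21, adjusted p = 0.00137), the highest value of the 3158 windows. The windows at 155.5 to 156 Mb (2.84), 156 to 156.5 Mb (2.46), 161 to 161.5 Mb (2.35) and 150.5 to 151 Mb (2.21) came next within the band. The 16 windows lay at 145 to 146, 149.5 to 152, 153.5 to 157 and 160.5 to 161.5 Mb.

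In WT cells 20 of 32 windows were higher after PMA and none lower, where 54.9% of all windows were called, 53.1% higher and 1.84% lower. The band's share of 62.5% was slightly over the background of higher calls. The largest rise was at 150 to 150.5 Mb, with 30.5 and 20.5 kb in WT PMA, against 3.01 and 1.5 kb in WT mock (2.06, SE 0.23, adjusted p = 0.00158). In KO cells that window held 35.8 and 27.2 kb in KO PMA and 4.97 and 3.78 kb in KO mock (1.95, SE 0.23). The KO response minus the WT response was −0.10 there (SE 0.32, adjusted p = 0.826), which did not pass. The rises at 162.5 to 163 Mb (1.60), 161.5 to 162 Mb (1.5), 155.5 to 156 Mb (1.45) and 161 to 161.5 Mb (1.4) followed. The call at 161.5 to 162 Mb was kept under 10 of 16 alternatives. It ended without WT PMA replicate 1 (1.15) or WT mock replicate 2 (1.21), after rescaling (0.78), with 1 tag threshold (0.54), with lists trimmed to equal numbers of regions (0.13) and with regions of at least 1000 bp (0.80). The WT count was 8 higher and 1 lower after rescaling each library to its total covered length, and 1 with lists trimmed to equal numbers of regions. The comparisons of treatments and of genotypes share libraries pairwise and are not independent.

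**Figure D2:**
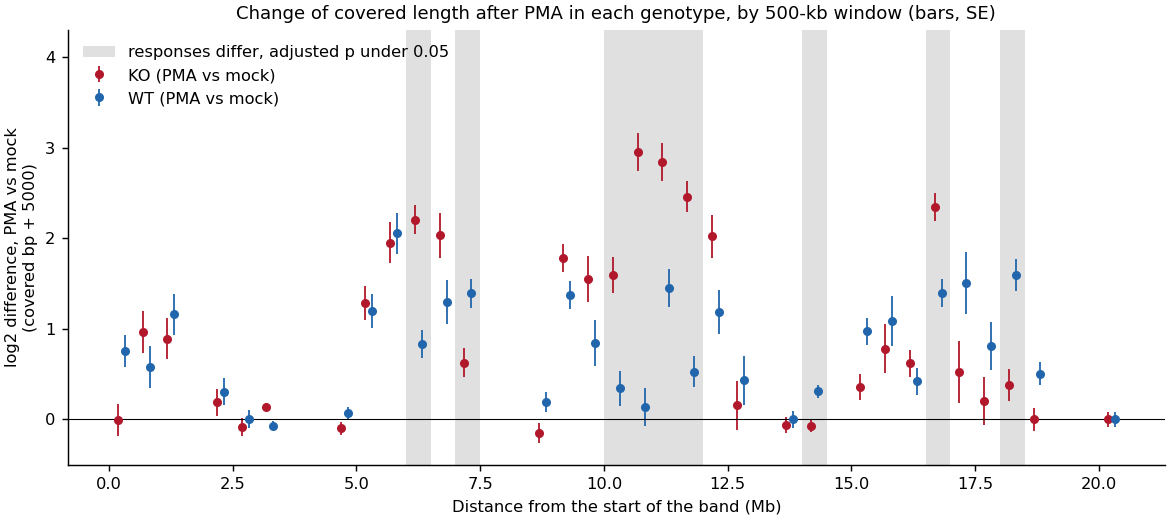
Change of covered length after PMA on the log2(covered bp + 5000) scale (vertical axis) against distance from the start of the band in Mb, for the 32 tested windows, with KO and WT beside each other and bars for the SE. Grey marks the 9 windows in which the responses differed at an adjusted p under 0.05; at 10.5 to 11 Mb the KO change is 2.95 and the WT change 0.14.

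The PMA response differed by genotype in 9 of the 32 windows, 6 with a larger response in KO and 3 with a larger response in WT, where 32.4% of all windows were called, 5.48% larger in KO and 26.9% larger in WT. In the band 18.8% were larger in KO and 9.38% larger in WT. With lists trimmed to equal numbers of regions the counts were 6 and 0. The largest difference was at 155 to 155.5 Mb, at 2.81 (SE 0.29, adjusted p = 0.00924), the fourth highest of the 3158 windows. The KO response there was 2.95, and the WT response was 0.14 (SE 0.21, adjusted p = 0.611). The call was kept under all 16 alternatives, with values from 1.52 to 3.57.

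The next windows were neighbours or lay in the block before. At 156 to 156.5 Mb the KO response exceeded the WT response by 1.94 (SE 0.24, adjusted p = 0.00924), with 2.46 in KO and 0.53 in WT. At 6-fold over input or more this value was −0.05. The windows at 155.5 to 156 Mb (1.39, SE 0.29, adjusted p = 0.0208) and 154.5 to 155 Mb (1.25, SE 0.28, adjusted p = 0.0211) also passed. Those calls held under 9 and 6 of 16 alternatives, and ended when either KO PMA library or either WT mock library was left out, the second also without either KO mock library. At 150.5 to 151 Mb, KO PMA held 34 and 35.5 kb, KO mock 3.60 and 3.62 kb, WT PMA 8.37 and 8.10 kb, and WT mock 3.5 and 1.5 kb. KO PMA alone was above 9 kb there, and the responses differed by 1.38 (SE 0.22, adjusted p = 0.0132), a call kept under 14 of 16 alternatives.

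At 161 to 161.5 Mb, KO PMA held 35.7 and 33.2 kb, KO mock 2.22 and 3.34 kb, WT PMA 12.4 and 13.8 kb, and WT mock 2.5 and 1.24 kb. Both genotypes had more covered length after PMA without overlap, and the mock groups overlapped. The responses differed by 0.95 (SE 0.22, adjusted p = 0.023). That call was kept under 4 of 16 alternatives. It ended when any library but WT PMA replicate 2 was left out.

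A larger response in WT was seen at 162.5 to 163 Mb (−1.22, SE 0.25, adjusted p = 0.0188), 151.5 to 152 Mb (−0.76, SE 0.22, adjusted p = 0.0454) and 158.5 to 159 Mb (−0.38, SE 0.10, adjusted p = 0.0328). At 151.5 to 152 Mb, KO PMA held 6.26 and 6.78 kb, KO mock 2.27 and 2.64 kb, WT PMA 11.8 and 8.56 kb, and WT mock 1 and 0.5 kb, so that WT was higher after PMA and lower under mock. These calls were kept under 7 of 16, 3 of 16 and 3 of 14 alternatives. That at 162.5 to 163 Mb ended without KO PMA replicate 2, either KO mock library or either WT mock library, that at 151.5 to 152 Mb without any library but WT PMA replicate 2, and that at 158.5 to 159 Mb without either KO PMA library, KO mock replicate 1, either WT PMA library or WT mock replicate 2. The last of them rests on at most 1.64 kb per library.

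**Figure D3:**
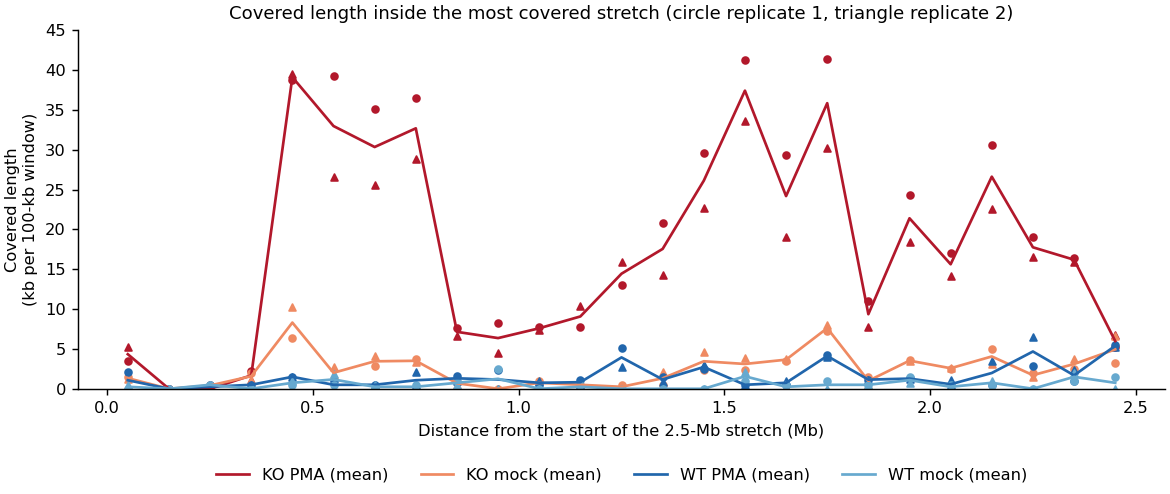
Covered length in kb per 100-kb window (vertical axis) inside the stretch from 154.5 to 157 Mb, against distance from its start in Mb. Lines are means of 2 libraries and points single libraries; KO PMA reaches 41.4 kb of 100 kb, and the other 3 groups stay at or below 10.2 kb.

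In windows of 100 kb, with a pseudocount of 1000 bp, 44 of 106 tested windows of the band differed between KO PMA and WT PMA (33 higher and 11 lower in KO), where 37.8% of all such windows were called. The responses to PMA differed in 13 of the 106, 12 larger in KO and 1 larger in WT. That is a smaller share than the 16.4% called among all such windows. Shares by direction over all 100-kb windows are not given, so neither split by direction has a background. The 154.5 to 157 Mb stretch had sharp steps at this resolution. In KO PMA the window from 154800001 to 154900000 held 2.19 and 1.17 kb, and the next, from 154900001 to 155000000, held 38.7 and 39.5 kb. The 3 following windows held 25.6 to 39.3 kb in KO PMA, and from 155300001 to 155400000 the values dropped to 7.65 and 6.64 kb. The window with the step had 6.39 and 10.2 kb in KO mock, 1.5 kb in each WT PMA library, against 0.5 and 1 kb in WT mock, so that the KO mock mean was also at its highest of the stretch there.

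From 155700001 to 156300000, each 100 kb again held over 10 kb in both KO PMA libraries. The window from 156000001 to 156100000 held 41.2 and 33.6 kb in KO PMA, 2.39 and 3.84 kb in KO mock, 0.5 kb in each WT PMA library, against 1 and 2.13 kb in WT mock. The window from 156200001 to 156300000 held 41.4 and 30.3 kb in KO PMA, 7.23 and 8.0 kb in KO mock, 4.28 and 3.95 kb in WT PMA, against 1 and 0 kb in WT mock. Of the 25 windows of 100 kb in the stretch, 21 had both KO PMA libraries above all 6 other libraries. The last one, from 156900001 to 157000000, did not, with 5.24 and 6.75 kb in KO PMA and 5.5 and 5.28 kb in WT PMA. The limits of the stretch were drawn after its high KO PMA values were seen, so the count of 21 was favoured by that choice. It is a description, and no such share over all 100-kb windows was computed.

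**Figure D4:**
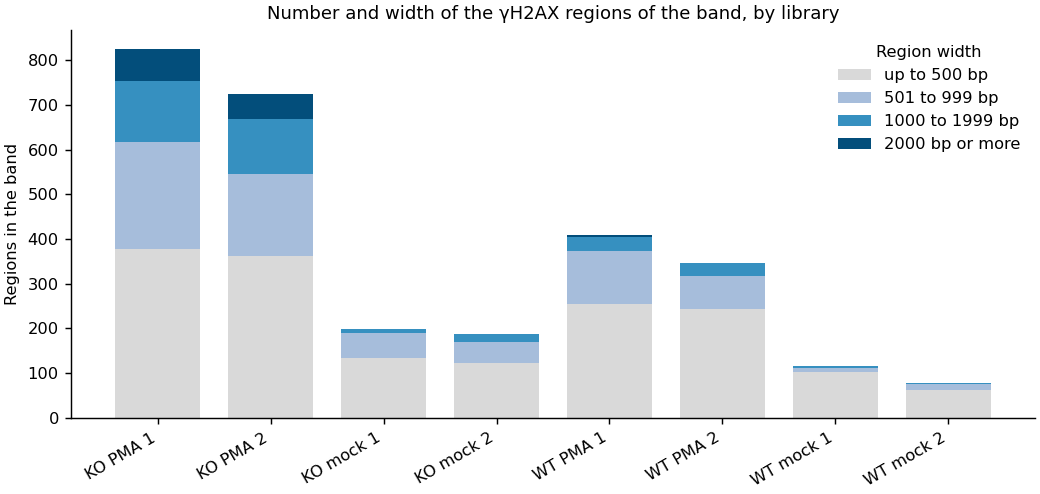
Number of regions in the band (vertical axis) in each of the 8 libraries, divided by region width. KO PMA has 209 and 180 regions of 1000 bp or more, and the other libraries have 35 or fewer.

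KO PMA regions were wider as well as more numerous. The caller joins windows of 500 bp, so 500 bp is the smallest width. The median width was 634 and 625 bp in KO PMA and 500 bp in all 6 other libraries, and the mean width was 956 and 903 bp in KO PMA, 601 and 632 bp in KO mock, 657 and 616 bp in WT PMA, and 551 and 547 bp in WT mock. Regions of at least 1000 bp numbered 209 and 180 in KO PMA, 10 and 18 in KO mock, 35 and 27 in WT PMA, and 4 and 1 in WT mock. They made up 25.3 and 24.8% of the regions in KO PMA and 53.8 and 52.0% of its covered length, against 8.19% ± 0.517 of the regions and 18.7% ± 1.76 of the covered length in WT PMA. KO PMA was separated from the other groups in each of these measures (exact permutation p = 0.333 against WT PMA, the smallest possible). Over all chromosomes 22.5% ± 1.80 of KO PMA regions and 12.7% ± 2.28 of WT PMA regions had this width.

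Width followed position. From 154.5 to 157 Mb the mean width was 1149 and 1039 bp in KO PMA, 610 and 658 bp in KO mock, 557 and 560 bp in WT PMA, and 500 and 531 bp in WT mock. From 161.5 to 163.5 Mb it was 608 and 584 bp in KO PMA, 500 bp in each KO mock library, 775 and 633 bp in WT PMA, and 508 and 641 bp in WT mock. The KO PMA libraries were the widest in the first stretch, and WT PMA replicate 1 in the second. The first stretch held 149 of the 209 and 125 of the 180 regions of at least 1000 bp in KO PMA, and 4 of 6 and 1 of 2 regions of at least 5000 bp. At the same positions the median fold over input was 3.82 and 3.95 in KO PMA, 4.52 and 4.47 in KO mock, 5.70 and 4.75 in WT PMA, and 5.63 and 4.51 in WT mock, so KO PMA had the lowest median fold over all its regions of the stretch. Tags per kb of region in the band, per 10 M tags, averaged 17.8 ± 0.358 in KO PMA, 17.9 ± 0.671 in KO mock, 15.8 ± 1.25 in WT PMA and 16.7 ± 0.346 in WT mock. Regions had to pass their library's tag threshold, which per 10 M tags was 7.12 to 7.69 in KO and 5.89 to 7.07 in WT libraries. The part of the threshold in these densities was not tested.

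The longest region of the band, in KO PMA replicate 2, spanned 8106 bp from 151258210 to 151266316 at 3.38-fold over input. The same span was covered to 83.6% in KO PMA replicate 1, 38.6 and 16.6% in KO mock, 6.17% in each WT PMA library and not at all in WT mock. The longest of KO mock, in replicate 2, spanned 1899 bp from 154980257 to 154982156, was covered in full in both KO PMA libraries and to 34.6% in KO mock replicate 1, and had no covered base in any WT library. The longest of WT PMA, in replicate 1, spanned 2850 bp from 162550112 to 162552962 and was covered to 8.04 and 23.8% in KO PMA, not at all in KO mock, to 42.5% in WT PMA replicate 2 and not at all in WT mock. The longest of WT mock spanned 1657 bp from 144912701 to 144914358 and had no covered base in any KO library.

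Reproducibility between replicates was highest in KO PMA. The share of regions that overlapped a region of the other replicate by at least 1 bp was 38.7 and 45.8% in KO PMA, 22.1 and 24.1% in KO mock, 20.3 and 24.3% in WT PMA, and 5.17 and 7.79% in WT mock. KO PMA was above the other groups, KO mock and WT PMA overlapped, and WT mock was below. In WT mock this is 6 regions per library. Over all chromosomes the shares were 42.6% ± 5.45 in KO PMA, 29.8% ± 0.268 in KO mock, 29.0% ± 3.52 in WT PMA and 19.9% ± 2.51 in WT mock. In the band the means were 42.3% ± 4.99, 23.1% ± 1.38, 22.3% ± 2.87 and 6.48% ± 1.85 in the same groups, so the KO PMA share differed from its genome-wide value by less than the spread between replicates and the other 3 were lower. A list that covers more of the band also overlaps another list more often by position alone, and this part of the difference was not tested.

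**Figure D5:**
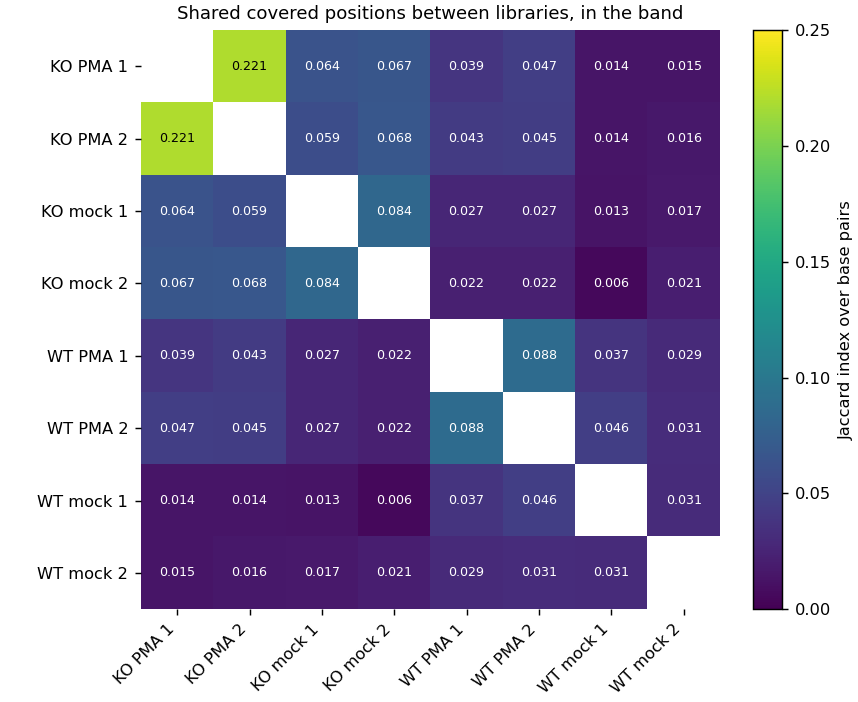
Jaccard index over base pairs, the shared covered length divided by the length covered in either, for each pair of the 8 libraries in the band (rows and columns are libraries, colour and figures give the index). The pair of KO PMA replicates stands out at 0.221, and no pair across groups exceeds 0.0682.

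The Jaccard index between replicates was 0.221 in KO PMA, 0.0836 in KO mock, 0.0876 in WT PMA and 0.0307 in WT mock. It ranged from 0.0295 to 0.0682 between treatments of 1 genotype, from 0.00585 to 0.0467 between genotypes under 1 treatment, and from 0.0142 to 0.0269 where both differed. The replicates of WT mock were no more alike than WT mock and WT PMA libraries, whose indices ran from 0.0295 to 0.0462. By stretch, the KO PMA replicates shared 0.282 from 154.5 to 157 Mb, 0.158 from 149.5 to 152 Mb and 0 from 161.5 to 163.5 Mb. The WT PMA replicates shared 0.0739, 0.0588 and 0.108 in these stretches, and 0.206 from 144.5 to 146 Mb. Among windows, the KO PMA index was highest at 154.5 to 155 Mb (0.481), 155 to 155.5 Mb (0.325) and 156 to 156.5 Mb (0.320). Lists that cover more of a stretch also share more of it by position alone. KO PMA covered 486 and 394 kb from 154.5 to 157 Mb, but only 7.30 and 5.84 kb from 161.5 to 163.5 Mb. The part of covered length in the differences of the index between groups, stretches and windows was not tested.

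Regions of replicate 1 that were called again in replicate 2 numbered 320 in KO PMA, 44 in KO mock, 83 in WT PMA and 6 in WT mock. Of the 320 in KO PMA, 170 overlapped no region of any other group, which is 53.1%, against 33.1% of such regions over chromosomes 1 to 22 and X. Of these 170, 112 lay from 154.5 to 157 Mb. The 500-kb windows of that stretch held 19, 51, 39, 63 and 40 of the 320, so most of the 320 lay there as well. The 112 are therefore not a concentration beyond that of the 320. Of the 83 in WT PMA, 32 or 38.6% overlapped no region of another group, against 44.1% over those chromosomes. Of these 32, 2 lay from 154.5 to 157 Mb and 10 from 161.5 to 163.5 Mb. The windows of the first stretch held 0, 1, 4, 2 and 6 of the 83, and those of the second 5, 1, 8 and 1. KO PMA had no region called in both replicates from 161.5 to 163.5 Mb, so it could have none of this kind there. The limits of both stretches were drawn after the window values were seen. Against WT PMA, 242 of the 320 KO PMA regions were called in neither WT PMA library, or 75.6%, against 65.1% over those chromosomes. Of the 83 WT PMA regions, 45 or 54.2% were called in neither KO PMA library, against 59.5%. The differences between the band and the chromosomes were not tested. Of the 18.3 kb covered in both KO mock libraries, 54.2% was also covered in both KO PMA libraries and 1.59% in both WT PMA libraries. These pairs of libraries jointly cover 261 and 38.7 kb of the band, so part of that difference can arise by position alone. Counting positions covered in either library, the shares were 78.7% for KO PMA and 22.9% for WT PMA. No share over all chromosomes was computed for these overlaps, and the difference was not tested. No region of the band was called in all 8 libraries (0 of 826 in KO PMA replicate 1).

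Regions called in both libraries of a group were ranked by fold over input, the authors' own value, taking the smaller of the pair and at most 1 region per Mb. In KO PMA the first lay from 161112009 to 161112509 (15.3-fold in its replicate 1, 19.8-fold in its replicate 2) and was called in no other group. The second lay from 149853407 to 149853907 (32.6- and 11.6-fold) and was also called in WT PMA replicate 1. In KO mock the first lay from 156521634 to 156522270 (6.96- and 9.53-fold) and was also called in KO PMA replicate 2. In WT PMA the first lay from 161809888 to 161810388 (12.3- and 28.5-fold) and the second from 155789321 to 155789821 (10.9- and 26.3-fold). The first was also called in WT mock replicate 1, and the second in KO PMA replicate 2. In WT mock the first lay from 144930095 to 144930595 (9.32- and 4.77-fold), and it was also called in KO PMA replicate 1, KO mock replicate 1 and both WT PMA libraries. The regions named by this rule were 500 to 770 bp wide in replicate 1 and held 5.89 to 15.7 tags per 10 M tags there, so their folds rest on few tags.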

How the data were processed

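γH2AX ChIP-seq regions were analysed in 8 K562 libraries, 2 each of KO PMA, KO mock, WT PMA and WT mock. The submitters' processing notes name CASAVA 1.4, BWA, HOMER and the build hg19. The authors called regions with HOMER, per the file headers, library by library and always over the WT mock input; windows of 500 bp had to pass a tag threshold set by depth and at least 2-fold over input. The deposited signal is a region's tags per 10 M tags. The deposited count is its tags, which in some lists are scaled to the input depth. The deposited fold is the ratio of tags to input tags, the score is HOMER's, and the p-value is HOMER's own for 1 region; fold, score and p-value served only to describe, rank or filter.

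Covered length per window was computed from starts and ends with Python 3.11.15, numpy 2.4.6 and pandas 2.3.3 and fitted in R 4.3.3 by limma 3.58.1 (trend on the mean) over all windows of chromosomes 1 to 22 and X covered in at least 2 libraries. All tests were two-sided, and neighbouring windows are not independent. The script was tested on simulated data. Alternatives were another pseudocount, no filter, rescaling to total covered length, windows of 100 kb, at least 6-fold over input, regions of at least 1000 bp, 1 tag threshold for all libraries, the same number of regions from each, the replicate number as a block, and each library left out. Windows named are the 5 with the largest change in each direction per comparison and up to 10 for the response difference. Regions named are up to 3 per group and the longest. Other windows, and the stretches, were chosen after their values were seen. The band, windows and gene lists were chosen with earlier results of these data known. No sequence is printed and no gene placed, since no hg19 reference was used. Depth ran from 15.6 to 27.2 M tags. A window listed at 0 had no called region, which does not show that γH2AX was absent.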

Additional observations from a re-analysis of the deposited data

Results flagged for a closer look

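In 9 windows of 500 kb the PMA response in KO minus that in WT passed an interaction test in limma at an adjusted p under 0.05, against a background of 32.4% of all windows. It was 2.81 on the log2 scale at 155 to 155.5 Mb, 1.94 at 156 to 156.5 Mb, 1.39 at 155.5 to 156 Mb, 1.38 at 150.5 to 151 Mb, 1.25 at 154.5 to 155 Mb and 0.95 at 161 to 161.5 Mb. It was −1.22 at 162.5 to 163 Mb, −0.76 at 151.5 to 152 Mb and −0.38 at 158.5 to 159 Mb. The first was kept under all 16 alternatives, the second under 15 and that at 150.5 to 151 Mb under 14. The other 6 were kept under 3 to 9 of 14 or 16. All lie on the log2(covered bp + 5000) scale, on which the responses start from different mock levels in KO and WT. The cause of the differences was not tested.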

How the results depend on the processing

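Counts of called windows among the 32 tested ran, KO PMA vs WT PMA, from 14 to 19 when each library was left out (18 in the report), and were 44 of 106 with 100-kb windows (37.8% of all 9552 called) and 5 of 26 at 6-fold over input. KO mock vs WT mock gave 4 to 6 without 1 library (7 in the report), lowest without KO mock replicate 2, 15 with 100-kb windows (20.9%), and 0 at 6-fold or with regions of at least 1000 bp, where limma's unadjusted p was under 0.05 in 1 and 3 windows. WT PMA vs WT mock gave 14 to 19 without 1 library (20 in the report), 9 after rescaling, 37 with 100-kb windows (34.4%), 8 at 6-fold, 3 with regions of at least 1000 bp, 10 with 1 tag threshold and 1 with the same number of regions. KO PMA vs KO mock gave 11 to 16 without 1 library (16 in the report), 8 after rescaling, 47 with 100-kb windows (18.4%), 5 at 6-fold and 8 with the same number of regions. The response difference gave 3 to 10 without 1 library (9 in the report), under 6 without any KO PMA, KO mock or WT mock library, 3 with a pseudocount of 1000 bp, 5 without a filter and 2 at 6-fold.

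The band's covered length kept its direction throughout, but calls ended at 6-fold for KO PMA vs WT PMA (0.46), and for KO mock vs WT mock after rescaling (0.23), at 6-fold (0.35) and with the same number of regions (0.15). The response difference passed after rescaling (0.88), with regions of at least 1000 bp (1.48) and with the same number of regions (1.69). With 1 tag threshold the band's covered length differed by 2.49 for KO PMA vs WT PMA and by 1.89 for KO mock vs WT mock. The response difference was then 0.60 and did not pass. Region number in KO mock vs WT mock turned to −0.11 with the same number of regions. At 6-fold the response difference turned to −0.048 at 156 to 156.5 Mb, −0.052 at 154.5 to 155 Mb and −0.13 at 161 to 161.5 Mb, and with regions of at least 1000 bp to 0.080 at 151.5 to 152 Mb. The cause was not tested. The share called in both replicates needs both libraries, so it has no value with 1 left out, nor where a list shared no region.

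Deviations of same-numbered libraries from their group means, over 3158 windows, correlated at 0.32 between WT PMA and WT mock. In the other pairs of groups the correlation ran from −0.13 to 0.09. Replicate 1 covered more of the band than replicate 2 in all 4 groups. With the replicate number as a block the SE of the band's covered length fell from 0.24 to 0.16. The labels do not say whether equal numbers mark a shared batch, so a pairing of the libraries remains possible. With the replicate block the counts were 16, 9, 19, 17 and 9 in the order above. With the KO PMA numbers crossed, chosen after seeing the data, KO PMA vs WT PMA gave 17.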
